A study of Mus musculus with 22 samples.

Results

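Among 13 B cell lymphomas from independent Eμ-Myc transgenic mice, the 6 tumours with the highest Myc signal were compared with the 6 tumours with the lowest. The tumours were chosen by the log2 intensity of the only probe set assigned to Myc alone: the arrays were ranked by it and the middle array was left out, so that 12 of the 22 arrays of the series entered the comparison. They are called the Myc-high and the Myc-low lymphomas, and single tumours are named by their replicate number. All 13 tumours are labelled as Eμ-Myc transgenic malignant B lymphocytes on the C57Bl/6 background, with no treatment named. Per the labels, B cells were taken from bone marrow or spleen with magnetic beads against B220 or IgM, and neither the organ nor the antibody is given for any single array. The other arrays were 5 premalignant Eμ-Myc transgenic B220+ samples and 4 wild type B220+ samples, both C57Bl/6 and from littermates 4 to 6 weeks of age. The sample labels give the same age for the lymphomas, whereas the series text gives it for the other 2 groups.

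Myc is a basic helix-loop-helix leucine zipper transcription factor that binds DNA as a dimer with Max, preferring the E-box motif CACGTG. It is known for driving genes of ribosome production, nucleotide synthesis, metabolism and the cell cycle. In Eμ-Myc mice the immunoglobulin heavy chain enhancer drives Myc in the B lineage, and clonal pre-B or B cell lymphomas follow after further mutations. The array does not tell transgene transcripts from those of the endogenous gene. The comparison asks whether tumours with more Myc RNA also carry more RNA of the growth genes.

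The 13 lymphomas had B cell signal on every array. Cd79a, a signalling chain of the B cell receptor, read 10.75 to 12.07 log2 units in Myc-high and 10.78 to 12.08 in Myc-low lymphomas, and Cd79b and Ptprc were above log2 8 on all 13. Pax5, which defines the B lineage, stayed below log2 4 on every lymphoma array through its probe set here. The 5′ end of beta-actin was dimmer than its 3′ end by 1.80 ± 0.40 log2 units in Myc-high and 2.05 ± 0.38 in Myc-low lymphomas (SD, n = 6 each), a difference of −0.26 (exact permutation p = 0.275, adjusted over 3 quality measures 0.412). The smallest p that 924 splits of 12 arrays allow is 0.00216. The same measure for Gapdh differed by −0.23 (exact permutation p = 0.139, adjusted 0.412) and the hybridisation spikes by −0.021 (exact permutation p = 0.933, adjusted 0.933). Premalignant and wild type arrays had smaller beta-actin gaps of 0.70 and 0.77 log2 units. Lymphoma 1, which is Myc-high, stood apart on the second principal component (16.5% of the variance) and had the lowest spike signal of the lymphomas, 8.47 log2 units. None of the tested members of 11 lists of markers of other cells or of sex had an unadjusted limma p under 0.05. Few markers were bright enough to test. The natural killer list had 0 tested members, the T cell, erythroid, dendritic cell, platelet and sex lists had 1 each, and the others had 3 to 11. Summed intensities of the salivary gland list ranged from 54.8 to 11848 on Myc-high and 54.4 to 9437 on Myc-low arrays, and those of the monocyte and macrophage list from 1868 to 11484 on Myc-high and from 2875 to 13318 on Myc-low arrays. The T cell list summed to 73.7 to 174.2 in Myc-high and 73.2 to 198.0 in Myc-low lymphomas, with Cd3d, Cd3e, Cd3g and 5 others of its 11 genes never above log2 4. The part of these signals, of array quality and of tumour purity in the gene results was not tested, except where a fit with the beta-actin gap as a covariate is given. In bulk RNA, fewer cells of a type and less RNA per cell cannot be told apart.

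Myc itself, on chr15:61985341-61990361 (GRCm38.p6), chose the groups, and its values are a description with no test. The Myc-high lymphomas were replicates 11, 4, 1, 9, 8 and 3, which read 10.76, 10.40, 10.05, 9.83, 9.79 and 9.63 log2 units. The middle array, lymphoma 10, read 9.62. The Myc-low lymphomas were replicates 7, 12, 5, 2, 6 and 13, with 9.35, 9.31, 9.31, 9.06, 8.85 and 8.67 log2 units. The tumours form a gradient with no gap at the upper boundary: lymphoma 3 lay 0.0041 log2 units above the middle array, which lay 0.27 above lymphoma 7. The mean was 10.08 ± 0.43 log2 units in Myc-high and 9.09 ± 0.28 in Myc-low lymphomas (SD, n = 6 each), 1.98-fold apart, and the 2 extreme tumours were 4.24-fold apart. Premalignant B cells averaged 9.97 ± 0.26 (SD, n = 5) and wild type B cells 7.04 ± 0.27 (SD, n = 4). All 6 Myc-low lymphomas lay below every premalignant array and 2 of the Myc-high lymphomas lay above every premalignant array, while all 13 tumours lay above every wild type array.

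**Figure D1:**
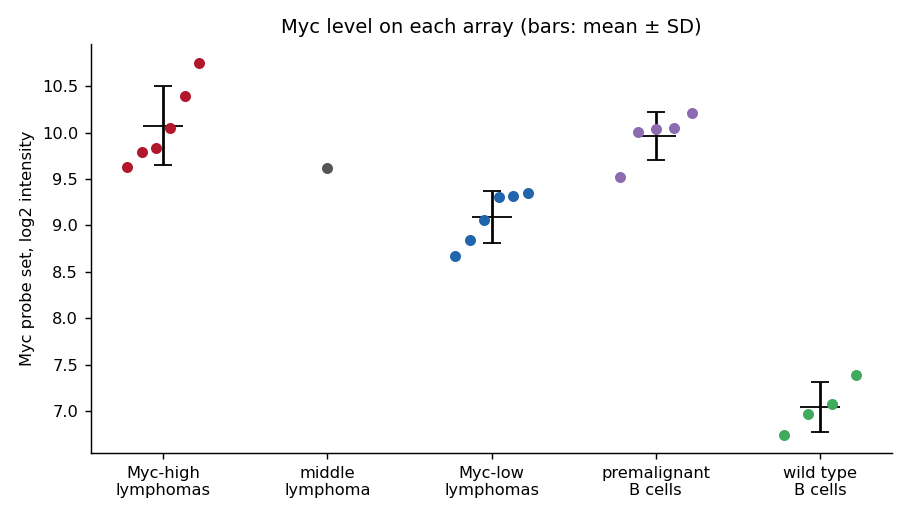
Myc signal on each of the 22 arrays (log2 intensity, vertical axis) by group, with 1 point per array, in order of level within a group, and the mean ± SD as bars. Myc-high lymphomas span 9.63 to 10.76 and Myc-low lymphomas 8.67 to 9.35; the middle lymphoma sits at the lower edge of the Myc-high range, and wild type B cells lie at 6.74 to 7.39.

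No tested gene passed between the Myc-high and the Myc-low lymphomas. Of 6066 genes tested with limma, Myc left out, 0 (0%) had a Benjamini-Hochberg adjusted p under 0.05, and the smallest adjusted p was 0.188. At an unadjusted p under 0.05 there were 511 genes, of which 267 (4.4%) were higher and 244 (4.02%) lower in Myc-high lymphomas. The groups did not overlap for 23 genes, 13 higher (0.214%) and 10 lower (0.165%) in Myc-high lymphomas. The differences were small against the spread between tumours: the median gene had a standard error of 0.19 and a 95% interval of ± 0.41 log2 units. A difference of 1 log2 unit or more was fitted for 54 genes, 19 higher and 35 lower. The median difference over all genes was 0.021 log2 units, and 53.3% of genes lay above 0. The number of arrays limits the precision, and a miss of the threshold does not show that values were alike.

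The gene with the smallest p was Fkbp5, a co-chaperone of Hsp90 in steroid receptor complexes. Fkbp5 read 7.69 to 8.94 with a median of 8.11 log2 units in Myc-high lymphomas, against 6.61 to 7.31 with a median of 6.81 in Myc-low lymphomas. Every Myc-high tumour lay above every Myc-low tumour, and the middle array at 7.54 fell between them. The fitted difference was 1.25 log2 units (SE 0.20, 95% interval 0.82 to 1.69, limma adjusted p = 0.188), a 2.38-fold higher mean. A second probe set of Fkbp5 differed by 1.78, and between premalignant and wild type B cells Fkbp5 differed by −0.07 (limma adjusted p = 0.81). Fkbp5 is the gene that passed under 2 alternatives: with the mean over a gene's probe sets limma gave 1.52 (adjusted p = 0.0106), and with array weights 1.24 (adjusted p = 0.022). Over all alternatives the smallest adjusted p of any gene ranged from 0.0106 to 0.999.

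Poglut2, an endoplasmic reticulum enzyme that adds glucose to secreted and membrane proteins, had the largest difference among the 10 increases with the smallest p. It read 6.35 to 7.17 (median 6.93) log2 units in Myc-high and 4.60 to 6.29 (median 5.28) in Myc-low lymphomas. The groups did not overlap, although the gap between them was narrow and the Myc-low tumours were spread widely. The difference was 1.45 log2 units (SE 0.30, limma adjusted p = 0.421). Man1a2, a Golgi mannosidase that trims N-glycans, read 6.16 to 7.04 (median 6.73) in Myc-high against 5.22 to 6.16 (median 5.98) in Myc-low lymphomas, a difference of 0.72. Its groups touched without overlapping. Alg5, which makes the glucose donor for N-glycan assembly, differed by 0.85 with overlapping groups, and the Golgi protein Zfpl1 by 0.71. Poglut2, Man1a2, Alg5 and Zfpl1 thus stood among the top 10 increases, all with limma adjusted p between 0.421 and 0.52. The other 5 were Ifrd1, a transcriptional co-regulator (0.77), Zfand2a, a stress-inducible zinc finger protein (0.61), the zinc finger gene Zfp35 (0.55), the replication origin subunit Orc2 (0.55) and the mRNA export factor Rae1 (0.47). A second probe set differed by 0.05 for Zfand2a and by 0.21 for Orc2.

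On the other side, Cenpk, a subunit of the inner kinetochore, read 4.08 to 4.92 (median 4.70) log2 units in Myc-high and 5.10 to 6.22 (median 5.70) in Myc-low lymphomas. Every Myc-high tumour was below every Myc-low tumour, with a difference of −1.04 (SE 0.21, limma adjusted p = 0.421). Zeb2, a zinc finger repressor, read 3.75 to 4.36 (median 4.19) in Myc-high against 4.77 to 6.03 (median 5.11) in Myc-low lymphomas, a difference of −1.13 (SE 0.23, limma adjusted p = 0.421). Its groups did not overlap either, but the Myc-high values lay close to the filter level. Trim27, a ubiquitin ligase, read 6.79 to 8.30 in Myc-high against 8.31 to 8.73 in Myc-low lymphomas, and all 3 of its probe sets were lower in Myc-high lymphomas, by 0.58 to 0.92. Its Myc-high tumours were widely spread and the Myc-low tumours tightly grouped. Snrnp48, a protein of the minor spliceosome, differed by −0.82 without overlap, and by −0.92 and −0.12 through dimmer probe sets. Tra2a, a splicing regulator, differed by −0.78, and Srpk1, a kinase of splicing factors, by −0.66. The remaining decreases among the 10 with the smallest p were the transcription factor Crebzf (−0.89), the cytoskeletal GTPase Septin6 (−0.80), the TNF receptor adaptor Tradd (−0.69) and the chemokine Ccl5 (−1.22). Dimmer Septin6 probe sets differed by −0.39 and 0.17. Ccl5 was near background, with means of 2.84 in Myc-high and 4.06 in Myc-low lymphomas, at least 1.04-fold lower in Myc-high lymphomas when the dimmer mean is set to log2 4.

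**Figure D2:**
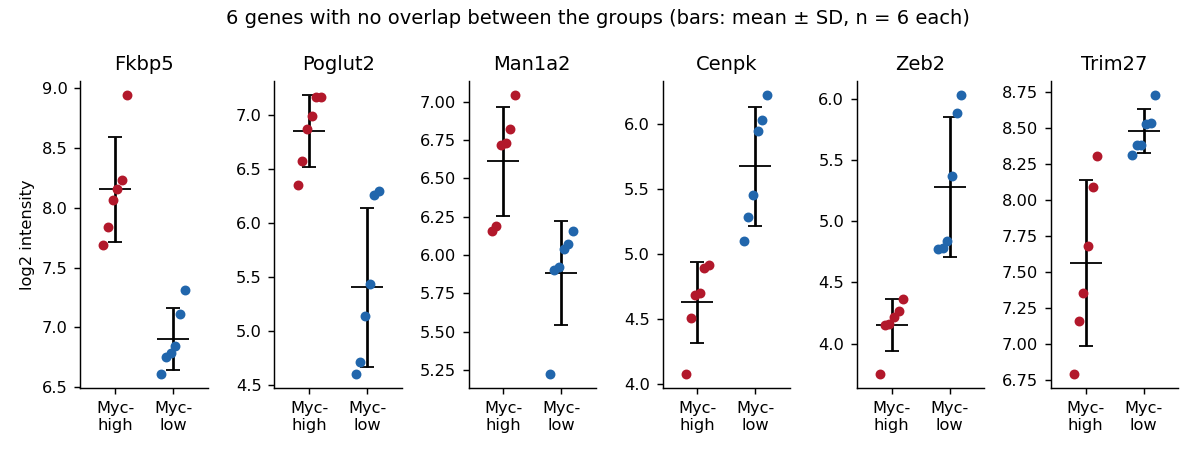
Log2 intensity (vertical axis, a scale per gene) of 6 genes whose groups do not overlap, with 1 point per tumour, Myc-high lymphomas in red left of Myc-low lymphomas in blue, and mean ± SD as bars (n = 6 each). Fkbp5, Poglut2 and Man1a2 are higher and Cenpk, Zeb2 and Trim27 lower in Myc-high lymphomas; none passed the test after adjustment over all 6066 genes.

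With Myc as a continuous measure over all 13 lymphomas, 0 of 6066 genes (0%) passed in limma, with a smallest adjusted p of 0.0888. At an unadjusted p under 0.05, 502 genes (8.28%) had a slope above 0 and 339 (5.59%) a slope below 0. Permutation tests with 100000 resamples gave 0 genes at an adjusted p under 0.05 for Pearson's r and 0 for Spearman's rho over 6066 relations each. The smallest adjusted p values were 0.0986 for r and 0.104 for rho, and 819 and 675 genes had an unadjusted permutation p under 0.05. Gtf2f1, the large subunit of general transcription factor IIF, had the highest r, 0.90 (rho 0.86, permutation p of r 5e-05, adjusted 0.0986), and 0.80 without the 2 arrays farthest from the median Myc value. Its groups nevertheless overlapped, at 7.18 to 7.87 log2 units in Myc-high and 6.85 to 7.43 in Myc-low lymphomas. Taf5l, a subunit of a histone acetyltransferase complex, had r = 0.89 (rho 0.89), Desi2, a member of a deSUMOylase family, 0.88 (rho 0.87), Mrpl2, a protein of the mitochondrial ribosome, 0.87 (rho 0.75) and Nepro, a nucleolar protein, 0.86 (rho 0.88). The lowest r belonged to Mtmr4, a phosphoinositide phosphatase (−0.89), Pagr1a, a partner of histone methyltransferases (−0.88), Xiap, an inhibitor of caspases (−0.86), Pdcd6ip, an adaptor of membrane scission (−0.84) and Cbx2, a Polycomb protein (−0.84). All 10 had a permutation p of r adjusted over all genes of 0.0986. Without the 2 farthest arrays their r lay between 0.74 and 0.89 for the first 5 and between −0.73 and −0.82 for the last 5. Every other r in the text had an adjusted permutation p of at least 0.0986. Without the same arrays, r was 0.85 for Fkbp5, 0.79 for Wdr12, 0.69 for Noc2l, 0.66 for Timm23, −0.59 for Kif2c, −0.68 for Rrm1, −0.51 for Cdk4 and 0.28 for Ncl. Each r rests on the brightest probe set of its gene. For some of these genes, dimmer probe sets are given beside the brightest, as differences between Myc-high and Myc-low lymphomas. Among the 5 genes with the lowest r, Mtmr4 gave 0.0057 beside −0.50, and Xiap 0.09 and −0.18 beside −0.48. Pdcd6ip gave 0.07 and −0.11 beside −0.66, and Pagr1a −0.13 and −0.43 beside −0.44. Among the 5 with the highest r, Gtf2f1 gave 0.48 beside 0.37 and Desi2 0.15 beside 0.29.

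**Figure D3:**
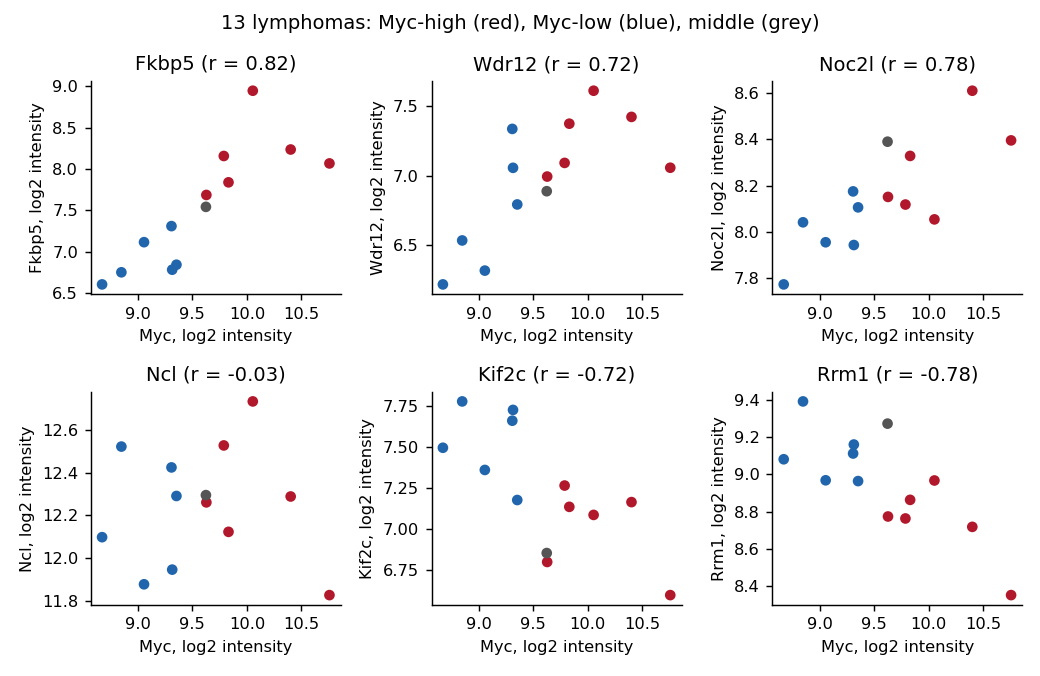
Myc log2 intensity (horizontal axis) against the log2 intensity of 6 genes (vertical axis, a scale per gene) over 13 lymphomas, with Myc-high tumours in red, Myc-low tumours in blue and the middle tumour in grey, and Pearson's r in each title. Pearson's r is 0.82 for Fkbp5, 0.72 for Wdr12, 0.78 for Noc2l, −0.03 for Ncl, −0.72 for Kif2c and −0.78 for Rrm1, and none passed the permutation test after adjustment.

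The Myc recognition motif was looked up in promoter windows from 250 bases before to 50 after the start of each gene, from RefSeq on GRCm38.p6. The motif searched was CACGTG, which reads the same on both strands. It was present in 661 of 5038 tested genes with a window (13.1%) and in 7.15% of all 32851 windows. These shares differ in unit: a gene counted if any of its windows held the motif, and the second share is per window. The share was 16% among genes higher and 15.2% among genes lower at an unadjusted p under 0.05, and among lists it was 36% of translation genes (9 of 25), 18.4% of ribosome biogenesis genes (7 of 38), 13.8% of DNA replication genes (4 of 29) and 3.23% of mitosis genes (1 of 31). Of the 5 genes with the highest r, 4 had a window and 3 of these held the motif (Gtf2f1, Taf5l and Mrpl2), against 1 of 3 for the lowest r (Pdcd6ip). The upstream stretches of 4 genes that hold the motif are shown, 3 of genes with an r above 0.80 and 1 of Cdk4, a known Myc target with an r below 0. The stretches, 250 bases each before the start and written 5′ to 3′ on the strand of the gene, are chr17:57011289-57011538 (minus strand), chr17:46645971-46646220 (plus strand, 1 of 3 starts), chr17:28486150-28486399 (minus strand) and chr10:127063285-127063534 (plus strand), with the motif in capitals.
Gtf2f1: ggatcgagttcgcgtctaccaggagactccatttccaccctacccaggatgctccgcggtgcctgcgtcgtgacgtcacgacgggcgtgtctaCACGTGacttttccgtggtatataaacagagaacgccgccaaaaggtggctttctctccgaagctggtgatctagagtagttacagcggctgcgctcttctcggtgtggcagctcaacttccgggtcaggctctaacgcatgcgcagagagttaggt
Mrpl2: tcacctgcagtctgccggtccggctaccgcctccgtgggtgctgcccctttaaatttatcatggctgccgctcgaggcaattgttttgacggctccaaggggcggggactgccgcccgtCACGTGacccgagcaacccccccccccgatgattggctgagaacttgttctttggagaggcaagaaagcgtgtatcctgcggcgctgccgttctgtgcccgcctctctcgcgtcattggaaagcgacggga
Fkbp5: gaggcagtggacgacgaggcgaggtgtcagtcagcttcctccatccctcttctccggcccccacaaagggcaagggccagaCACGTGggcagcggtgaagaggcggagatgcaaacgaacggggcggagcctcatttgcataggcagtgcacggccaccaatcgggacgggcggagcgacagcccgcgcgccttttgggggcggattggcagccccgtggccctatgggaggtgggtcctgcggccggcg
Cdk4: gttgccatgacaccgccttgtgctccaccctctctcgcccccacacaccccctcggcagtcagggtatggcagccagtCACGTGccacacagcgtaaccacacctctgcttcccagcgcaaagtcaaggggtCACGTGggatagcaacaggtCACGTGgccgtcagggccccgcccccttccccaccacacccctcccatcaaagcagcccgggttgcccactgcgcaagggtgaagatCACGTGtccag
Counted from its first base to the start, the motif lay 157 bases upstream in Gtf2f1, 131 in Mrpl2 and 169 in Fkbp5, while Cdk4 held 4 copies at 172, 118, 98 and 11 bases. Their r with Myc was 0.90, 0.87 and 0.82, and −0.28 for Cdk4, which holds the most copies of these 4. A match is a description and not a binding site.

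None of the best known Myc targets passed the test, and the precision differed between them. Ncl, which encodes the nucleolar protein nucleolin, read 11.83 to 12.73 (median 12.27) log2 units in Myc-high and 11.88 to 12.52 (median 12.19) in Myc-low lymphomas. The ranges lay on top of each other, with a difference of 0.10 (95% interval −0.27 to 0.47, limma adjusted p = 0.888) and r = −0.03 (rho 0.04). Its other 3 probe sets differed by −0.32 to 0.19. Ldha, the lactate dehydrogenase subunit of glycolytic cells, read 11.93 to 12.45 (median 11.96) in Myc-high against 11.84 to 12.23 (median 12.04) in Myc-low lymphomas, a difference of 0.07 (95% interval −0.21 to 0.34). Odc1, the first enzyme of polyamine synthesis, differed by 0.08 (95% interval −0.28 to 0.45), and by −0.25 and 0.13 through dimmer probe sets. Npm1, a nucleolar chaperone of ribosome assembly, read 11.53 to 11.92 (median 11.85) in Myc-high against 11.72 to 12.49 (median 12.01) in Myc-low lymphomas, a difference of −0.29 (95% interval −0.59 to 0.02). A second Npm1 probe set differed by 0.08. Cdk4, the kinase partner of D-type cyclins, differed by −0.27 (95% interval −0.77 to 0.23), with all 3 probe sets below 0. Cad, which starts pyrimidine synthesis, had an unadjusted p under 0.05. It read 8.32 to 9.40 (median 8.55) in Myc-high and 7.98 to 8.52 (median 8.21) in Myc-low lymphomas, a difference of 0.42 (SE 0.18, limma adjusted p = 0.582), with overlapping groups. Ccnd2, a D-type cyclin, spread from 3.75 to 8.71 in Myc-high and 2.99 to 7.24 in Myc-low lymphomas, so that its difference of 0.79 had an SE of 0.80. Of 24 tested genes on the list of classic Myc targets, 0 passed. At an unadjusted p under 0.05, 1 (Cad) was higher (4.17%, against 4.4% of all genes) and 0 were lower. The median difference was 0.044, beside 0.021 over all genes. In premalignant over wild type B cells 21 of the same 24 genes passed as higher in limma, with a median difference of 1.10 log2 units. The Myc means there, 9.97 and 7.04 log2 units, lay further apart than 10.08 in Myc-high and 9.09 in Myc-low lymphomas. The 1.10 and the 0.044 thus do not belong to equal Myc gaps.

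Genes of ribosome biogenesis and RNA polymerase I had the largest share above 0 among the lists with over 10 tested members. No member passed the test after adjustment. Of 43 tested, 38 were higher and 5 lower in Myc-high lymphomas, with a median difference of 0.20 log2 units against 0.021 over all genes. Members with an unadjusted p under 0.05 numbered 7 higher (16.3%, against 4.4% of all genes) and 1 lower (2.33%, against 4.02%). The list's median level was 8.06 to 8.37 log2 units on the Myc-high arrays and 7.68 to 8.20 on the Myc-low arrays, and these ranges overlapped. Nop14, a factor of small subunit assembly, read 6.92 to 7.82 (median 7.42) in Myc-high and 6.42 to 7.15 (median 6.60) in Myc-low lymphomas. Its difference was 0.68 log2 units (SE 0.19, limma adjusted p = 0.52). Wdr74, a factor of large subunit maturation, read 8.21 to 9.06 (median 8.41) in Myc-high against 7.68 to 8.55 (median 7.99) in Myc-low lymphomas, a difference of 0.49. In both genes the upper Myc-low tumours overlapped the lower Myc-high ones. Wdr12, of the complex that matures the large subunit, read 6.99 to 7.61 in Myc-high against 6.22 to 7.33 in Myc-low lymphomas, a difference of 0.55, with r = 0.72 (rho 0.77) over 13 tumours, while its second probe set differed by 0.12. The RNA polymerase I and III subunit Polr1d differed by 0.55 through one probe set and −0.28 through another, so that its direction is uncertain. The rRNA processing factor Ftsj3 (0.40), the GTPase Bms1 (0.30) and the nucleolar protein Noc2l (0.28, r = 0.78, rho 0.74) made up the 7. Rrp12, which serves export of the subunits, was the 1 in the other direction, at 4.98 to 5.47 in Myc-high and 5.39 to 5.85 in Myc-low lymphomas (−0.31). The count of 7 was 4 without lymphoma 4 and 11 without lymphoma 5, 1 with arrays centred on the spikes and 13 with the beta-actin gap as a covariate, whereas the median stayed between 0.13 and 0.28 in all alternatives. With Myc as a continuous measure, 12 of the 43 had an unadjusted p under 0.05 with a slope above 0 and 1 below, beside 8.28% and 5.59% of all genes.

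**Figure D4:**
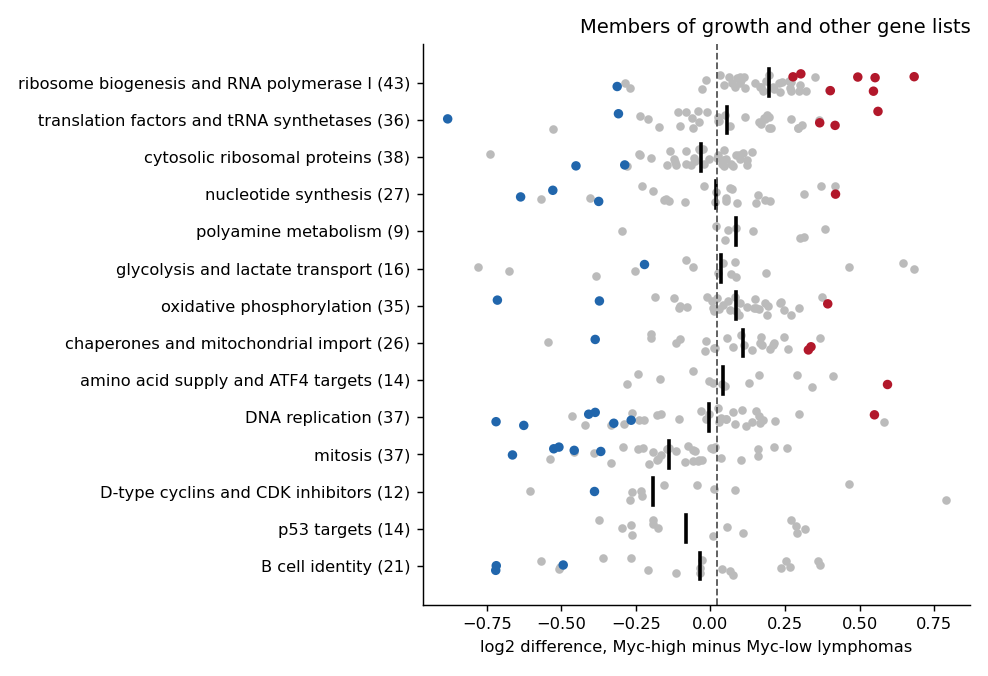
Difference between Myc-high and Myc-low lymphomas (log2, horizontal axis) for each tested member of 14 gene lists, with the number of members in brackets; red and blue points have an unadjusted limma p under 0.05 (higher and lower in Myc-high lymphomas), black bars are list medians and the dashed line is the median of all genes, 0.021. The ribosome biogenesis list lies mostly right of 0 (38 of 43) and the mitosis list mostly left (28 of 37).

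No gene passed in the other lists of the protein synthesis machinery. Of 36 translation factors and tRNA synthetases, 22 lay above 0 with a median of 0.056, and 3 were higher (8.33%, against 4.4% of all genes) and 2 lower (5.56%, against 4.02%) at an unadjusted p under 0.05. The 3 higher became 0 without lymphoma 9. These were the initiation factor subunits Eif2b1 (0.56) and Eif3b (0.37) and the tryptophan enzyme Wars (0.42) on one side, and the isoleucine enzyme Iars (−0.88) and the phenylalanine enzyme subunit Farsb (−0.31) on the other. Eif3b read 9.09 to 9.78 (median 9.45) log2 units in Myc-high and 8.82 to 9.32 (median 9.11) in Myc-low lymphomas, and Iars 6.67 to 8.62 (median 7.74) in Myc-high against 8.15 to 8.84 (median 8.68) in Myc-low lymphomas. Both pairs of groups overlapped. Dimmer Farsb probe sets differed by −0.48, −0.09 and 0.07. Over the continuous range of Myc, 8 of the 36 had an unadjusted p under 0.05 with a slope above 0 and 0 below, beside 8.28% and 5.59% of all genes. Of the cytosolic ribosomal proteins, the structural parts of the ribosome, 16 of 38 lay above 0, and the median was −0.031 (0.025 for the slope on continuous Myc). Rps9 (−0.45) and Rps20 (−0.29) were the 2 with an unadjusted p under 0.05 (5.26%, against 4.02% of all genes lower). Dimmer Rps20 probe sets differed by −0.24 and, near the filter level, by 0.52.

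Genes of nucleotide supply went both ways. Of 27 tested, 15 lay above 0 with a median of 0.020. Cad was the 1 higher at an unadjusted p under 0.05 (3.70%, against 4.4% of all genes). The 3 lower (11.1%, against 4.02% of all genes) were Ctps2, a CTP synthase (−0.53), and both subunits of ribonucleotide reductase, which makes deoxynucleotides for DNA synthesis. Rrm1 read 8.35 to 8.97 (median 8.77) log2 units in Myc-high and 8.96 to 9.39 (median 9.10) in Myc-low lymphomas, a difference of −0.37 (SE 0.13, limma adjusted p = 0.552) and r = −0.78 (rho −0.77). The groups met at their edges, and a second Rrm1 probe set differed by 0.28 in the other direction. Rrm2 read 9.53 to 11.05 (median 10.05) in Myc-high against 10.47 to 11.12 (median 10.71) in Myc-low lymphomas, a difference of −0.64, and all 3 of its probe sets were below 0.

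Metabolic lists had median differences of 0.034 to 0.11 log2 units, beside 0.021 over all genes. Of 9 tested polyamine genes 8 lay above 0, with a median of 0.084 and 0 at an unadjusted p under 0.05, and the spermidine synthase Srm differed by 0.30. Of 16 genes of glycolysis and lactate transport 9 lay above 0 with a median of 0.034. Hk1, the first enzyme of glycolysis, differed by 0.68 with a wide SE of 0.37, and Pgk1, an ATP-forming enzyme of the same route, by −0.22. Pgk1 was the 1 member with an unadjusted p under 0.05 (6.25%, against 4.02% of all genes lower). For oxidative phosphorylation 27 of 35 lay above 0, with a median of 0.086. Ndufv2, a subunit of complex I, read 9.81 to 10.08 (median 9.89) in Myc-high and 9.36 to 9.77 (median 9.49) in Myc-low lymphomas. Its groups did not overlap at a difference of 0.39 (SE 0.11, limma adjusted p = 0.52), while 2 further Ndufv2 probe sets differed by 0.12 and 0.13. Sdha of complex II read 7.49 to 8.82 (median 8.07) in Myc-high against 8.71 to 9.01 (median 8.82) in Myc-low lymphomas, a difference of −0.71, and the complex III subunit Uqcrb differed by −0.37. These 3 were the members with an unadjusted p under 0.05, 2.86% higher and 5.71% lower, against 4.4% and 4.02% of all genes. Of 26 chaperones and mitochondrial import proteins 18 lay above 0, with a median of 0.11. The import proteins Timm10 (0.34) and Timm23 (0.33, r = 0.82, rho 0.75) were higher and the chaperonin subunit Cct4 (−0.39) lower at an unadjusted p under 0.05. The shares were 7.69% higher and 3.85% lower, against 4.4% and 4.02% of all genes. Of 14 genes of amino acid supply, the serine synthesis enzyme Psph (0.59) was the 1 with an unadjusted p under 0.05 (7.14%, against 4.4% of all genes higher). The leucine transporter Slc7a5 differed by 0.29.

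Mitosis genes leaned toward the Myc-low lymphomas. Of 37 tested, 28 were lower and 9 higher in Myc-high lymphomas, with a median of −0.14 log2 units. No member passed after adjustment, and 5 were lower (13.5%, against 4.02% of all genes) and 0 higher at an unadjusted p under 0.05. The list's median level spanned 6.79 to 7.64 log2 units on Myc-high and 7.03 to 7.72 on Myc-low arrays, which overlapped widely. Kif2c, a kinesin that takes microtubules apart, read 6.60 to 7.27 (median 7.11) in Myc-high and 7.18 to 7.78 (median 7.58) in Myc-low lymphomas, a difference of −0.53 (SE 0.15, limma adjusted p = 0.52) and r = −0.72 (rho −0.77). A dimmer Kif2c probe set differed by −0.0087. Cenpe, a motor of the kinetochore, read 3.63 to 4.55 (median 4.00) in Myc-high against 4.24 to 5.03 (median 4.79) in Myc-low lymphomas, a difference of −0.66. Its Myc-high tumours lay about the filter level. The other 3 were the kinetochore protein Ndc80 (−0.51), Incenp of the chromosomal passenger complex (−0.46) and the DNA topoisomerase Top2a (−0.37). Racgap1, which acts in cytokinesis, had the largest difference above 0, 0.26. The count of 5 was 10 without lymphoma 7, 1 with spike centring, 3 with the beta-actin gap as a covariate and 8 with Myc as a continuous measure. The median lay between −0.21 and −0.04 in all alternatives, at −0.04 with the beta-actin gap as a covariate and −0.05 with array weights.

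The DNA replication list was split. Of 37 tested genes 18 lay above 0, with a median of −0.0054, and 1 was higher (2.70%, against 4.4% of all genes) and 6 lower (16.2%, against 4.02%) at an unadjusted p under 0.05. Orc2, a subunit of the origin recognition complex, read 6.29 to 6.82 (median 6.63) log2 units in Myc-high and 5.69 to 6.36 (median 6.02) in Myc-low lymphomas, a difference of 0.55 (0.21 through a second probe set). Gmnn, which blocks relicensing of origins, read 6.81 to 7.99 (median 7.38) in Myc-high against 7.70 to 8.50 (median 8.13) in Myc-low lymphomas, a difference of −0.72 (SE 0.22, limma adjusted p = 0.531). The groups overlapped in both genes. Rpa1, which coats single-stranded DNA, differed by −0.41. The S phase cyclin Ccne2 (−0.63), the primase subunit Prim2 (−0.39), the flap nuclease Fen1 (−0.32) and the sliding clamp Pcna (−0.27) completed the 6, a count that was 3 without lymphoma 4, 0 with spike centring and 10 with array weights. Among 12 D-type cyclins, CDK inhibitors and their partners 4 lay above 0. The retinoblastoma relative Rbl1 (−0.39) was the 1 with an unadjusted p under 0.05 (8.33%, against 4.02% of all genes lower). A dimmer Rbl1 probe set differed by 0.05.

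Within the Myc network itself 7 genes were tested, and 0 passed. Mxd3, a Max partner that represses E-box genes, read 4.26 to 4.61 (median 4.45) log2 units in Myc-high and 4.52 to 5.07 (median 4.83) in Myc-low lymphomas, a difference of −0.40 (limma adjusted p = 0.531). It was the 1 member with an unadjusted p under 0.05 (14.3%, against 4.02% of all genes lower), and the groups overlapped. Both of its probe sets that passed the filter were lower, and both lay near the filter level. The dimmer of them had means of 3.83 in Myc-high and 4.22 in Myc-low lymphomas. Mxi1, another repressing partner of Max, differed by 0.39 with overlapping groups (r = 0.66, rho 0.48, and r = 0.41 without the 2 farthest arrays). Mlxip, which senses glucose with Mlx, differed by 0.39, the repressor Mnt by 0.04, Mxd4 by −0.06 and the Max partner Mga by −0.40. Mlx had means below log2 4 in both groups, 3.76 in Myc-high and 3.75 in Myc-low lymphomas, so that no fold is given. The probe sets of Max, Mycn, Mycl, Mxd1 and Mlxipl were below log2 4 on all 13 lymphoma arrays, a statement on these probe sets and not on the genes.

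Checkpoint and B cell stage genes held no gene that passed. Mdm2, the ubiquitin ligase that restrains p53, differed by 0.29 (95% interval −0.27 to 0.85), and Cdkn1a and Cdkn2a were too dim to test. The list of 14 p53 targets and that of 8 BCL2 family genes had 0 members with an unadjusted p under 0.05, and their medians were −0.083 and 0.097. Vpreb1, a surrogate light chain gene of pre-B cells, stood out in 1 tumour of each group. It reached 10.62 in a Myc-high and 6.36 in a Myc-low tumour, while the medians were 2.45 in Myc-high and 2.41 log2 units in Myc-low lymphomas. The stage of the tumours was not tested. Of 10 pro-B and pre-B genes 3 lay above 0. Cd93, a surface protein of immature B cells, read 6.75 to 10.07 (median 7.68) in Myc-high and 8.26 to 10.39 (median 9.55) in Myc-low lymphomas, a difference of −1.44 (SE 0.54, limma adjusted p = 0.552), and the transcription factor Sox4 differed by −1.04 (SE 0.63). The ranges overlapped over most of their length. Of 9 mature B cell genes 6 lay above 0. Tnfrsf13b, a receptor for B cell survival factors, was the 1 with an unadjusted p under 0.05 (11.1%, against 4.4% of all genes higher). Of 21 B cell identity genes the 3 with an unadjusted p under 0.05 (14.3%, against 4.02% of all genes lower) were lower in Myc-high lymphomas: the kinase Syk (−0.72), the repressor Bach2 (−0.72) and the lineage factor Ebf1 (−0.49). This count was 0 without lymphoma 2. Dimmer Syk probe sets differed by −0.36 and 0.06. Ebf1 read 7.20 to 7.75 (median 7.54) in Myc-high against 7.35 to 8.53 (median 8.07) in Myc-low lymphomas, and all 3 of its probe sets were below 0. The lists of MHC class II (9 tested), interferon response (9), AP-1 and immediate early (10), NF-kB pathway (8) and Myc-repressed and adhesion genes (13) had 0 members with an unadjusted p under 0.05, with medians between −0.29 and 0.013 log2 units.

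The split was also set beside the change from wild type to premalignant B cells, which shares no array with it. Myc itself averaged 9.97 in premalignant and 7.04 log2 units in wild type B cells, a wider gap than within the split. The beta-actin gap was smaller on those arrays than on the lymphoma arrays. In limma 828 genes (13.6%) were higher and 814 (13.4%) lower in premalignant than in wild type B cells. At an unadjusted p under 0.05, 4.4% of all genes were higher and 4.02% lower in Myc-high lymphomas. Of the 828, 54 were higher (6.52%) and 39 lower (4.71%) at this level, 59.5% lay above 0, and the median difference was 0.070 log2 units. Of the 814, 15 were higher (1.84%) and 44 lower (5.41%), 39.7% lay above 0, and the median was −0.063. Both medians lay in the direction of the premalignant change, by under 0.1 log2 units. Among the 355 genes at least 2-fold higher in premalignant cells the median was 0.015, with 17 higher (4.79%) and 24 lower (6.76%). Among the 219 genes at least 2-fold lower in premalignant cells the median was −0.12, 31.5% lay above 0, and 6 were higher (2.74%) and 13 lower (5.94%). Across all 6066 genes the 2 differences correlated at r = 0.13, and 55.0% had the same sign. Genes are not independent replicates, and this is a description. The 2 growth lists parted here: 30 of 43 ribosome biogenesis and 33 of 37 mitosis genes were higher in premalignant than in wild type B cells, while within the lymphomas the first list lay mostly above 0 and the second mostly below.

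**Figure D5:**
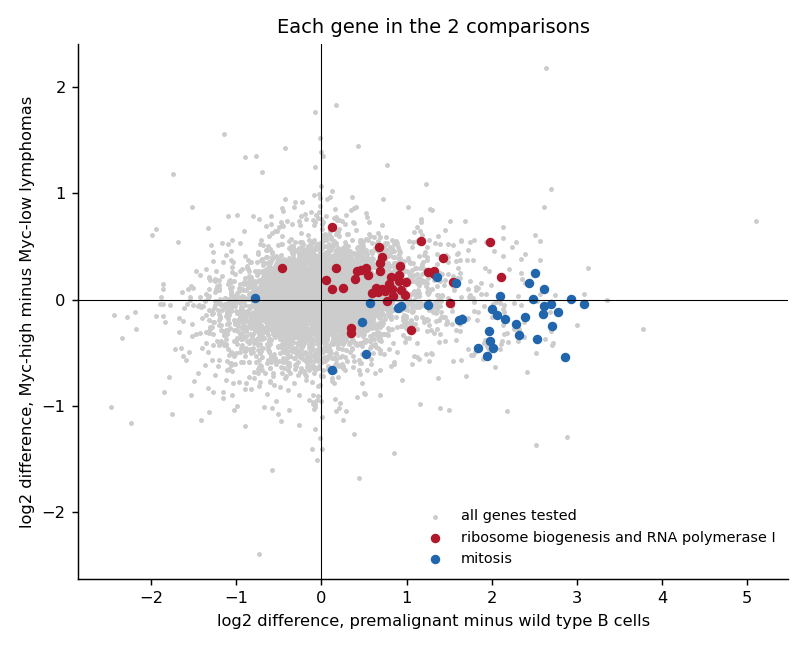
Difference between premalignant and wild type B cells (log2, horizontal axis) against the difference between Myc-high and Myc-low lymphomas (log2, vertical axis), with 1 grey point for each of 6066 genes, ribosome biogenesis genes in red and mitosis genes in blue. Both lists lie mostly right of 0; the red points lie mostly above 0 and the blue points mostly below.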

How the data were processed

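RNA of 22 samples was hybridised to Affymetrix MOE430A arrays, with 1 array for each. The deposited values are intensities from GCRMA, which the authors used per the submitters' processing notes. This method models the background from probe sequence, brings arrays to one distribution and summarises probe sets. The version of the method, like the set of arrays run together, remains not given in the sources used here. Bringing arrays to one distribution can remove a shift of total RNA with Myc.

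Log2 of the deposited intensities was taken. Of 22690 probe sets, 64 were controls, 20380 had 1 gene symbol, 691 several and 1555 none. Probe sets with 1 symbol and log2 above 4 on at least 4 of 13 lymphoma arrays were kept, and the one with the highest mean over the lymphomas stood for its gene (6066 genes, Myc left out). The 6 against 6 comparison, the continuous fit and premalignant against wild type were fitted with limma 3.58.1 (lmFit, eBayes, two-sided) in R 4.3.3. Benjamini-Hochberg adjustment and a threshold of 0.05 were used. The fit of the 6 against 6 comparison was also run on simulated data with known changes. Permutation tests were run in Python 3.11.15 with NumPy 2.4.6. The wild type and premalignant samples are called biological replicates, with nothing on separate mice, so their p-values measure the spread between these samples. In the gene lists (24 of pathways, 11 of markers), 752 entries gave 660 on the array and 513 tested.

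The members, lists and tests were chosen with earlier results of these data known. Genes named by rule were the Myc network, the 10 smallest p in each direction, up to 2 leading members of each list in the direction of its median and 1 in the other, the 5 highest and 5 lowest r, and Ncl, Npm1, Odc1, Cad, Ldha, Cdk4, Ccnd2, Cdkn2a, Mdm2 and Cdkn1a. This gave 107 genes, not all of them named. Wdr12, Polr1d, Ftsj3, Bms1, Noc2l, Ndc80, Incenp, Top2a, Ccne2, Prim2, Fen1, Pcna, Rrm1, Rrm2, Wars, Farsb, Uqcrb and Bach2 were named after their values were seen, as were the genes outside the rule in the other observations. Because no gene passed, motif shares use sets at an unadjusted p under 0.05, and r and rho were computed for all genes. The premalignant comparison and the choice of sequences were also added then. There were 11 alternatives, leaving out each of 12 arrays, and 3 alternatives added after seeing the data.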

Additional observations from a re-analysis of the deposited data

Results flagged for a closer look

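A tumour stood far from the other 5 of its group in 6 of 206 tested groups of 6 values, where chance gives about 1 in 20 groups. Among the increases, Ifrd1 was 6.55 log2 units in Myc-low lymphoma 7, above the other Myc-low tumours. Man1a2 was 5.22 in Myc-low lymphoma 6, below the others of its group. Zeb2 was 3.75 in Myc-high lymphoma 9, below the others and under the filter level of log2 4. Vpreb1, the pre-B surrogate light chain gene, was 10.62 in Myc-high lymphoma 1 and 6.36 in Myc-low lymphoma 7, each above the rest of its group. Icosl, the ligand of a T cell costimulator, was 6.41 in Myc-high lymphoma 3, above the other 5.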

How the results depend on the processing

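Of 107 genes named by rule, 98 kept the sign of their difference in all 11 alternatives and in each fit without 1 array. The count of genes that passed was 1 with the mean over probe sets and 1 with array weights (Fkbp5 in both) and 0 in the other alternatives, including each fit without 1 array (0 to 0). The 511 genes at an unadjusted p under 0.05 became 103 (64 higher, 39 lower) with arrays centred on the spikes, 769 (463 higher) with the beta-actin gap as a covariate, 841 (502 higher) with Myc as a continuous measure and 947 (513 higher, 434 lower) with array weights. Alternatives added after seeing the data gave 911 (554 higher) for continuous Myc with the beta-actin gap and 936 (533 higher, 403 lower) for continuous Myc without lymphoma 1. Leaving out 1 array gave 369 to 740 genes, 180 to 387 higher and 171 to 353 lower. The cause of these shifts was not tested. No paired analysis was possible because both groups are subsets of the malignant arrays and share no replicate number. Signal near background limits dim genes such as Ccl5, Cenpe and Zeb2, and 2 tumours with nearly equal Myc fell on different sides of the upper boundary.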

Other observations

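Genes known to be induced by glucocorticoids were looked at because Fkbp5 is one of them, and were chosen after its value was seen. Tsc22d3, which encodes a leucine zipper protein, read 5.85 to 8.03 (median 7.36) log2 units in Myc-high and 3.71 to 7.56 (median 5.27) in Myc-low lymphomas, with overlapping groups and a difference of 1.56 (SE 0.62, limma adjusted p = 0.552). Ddit4, an inhibitor of mTORC1 signalling, read 6.64 to 8.80 (median 7.52) in Myc-high against 4.79 to 7.46 (median 6.19) in Myc-low lymphomas, a difference of 1.35 (SE 0.46, limma adjusted p = 0.552), and its r with Myc over 13 tumours was 0.21 (rho 0.26). Klf9, a zinc finger transcription factor, differed by 0.60, the kinase Sgk1 by 0.33, the clock gene Per1 by 0.18 and the glucocorticoid receptor gene Nr3c1 by 0.30. None of these genes passed the test.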
